A study of Oryzias latipes with 24 samples.

Results

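The T-box, zf-GATA, MH1 and AP-2 families of transcription factors are described here across medaka (Oryzias latipes) development. The members are the genes that the study's list of transcription factors places in these families, except 2 that are not reported here. They number 60 of the 1646 transcription factors and of the 26549 genes in the table: 22 T-box, 17 zf-GATA, 15 MH1 and 6 AP-2. The choice used family membership alone and no measured value.

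The time course runs from cleavage to the stages around hatching and was measured by strand-specific poly(A) RNA sequencing. Of the 24 samples in the series it takes 22 libraries, 2 for each of stages 6, 11, 15, 19, 25, 29, 32, 36, 38, 40 and 41. Stage 6 is a cleavage stage, stage 11 a blastula, stage 15 a mid-gastrula, and stages 19 and 25 belong to somite formation. Organs form in the later ones, and no group was treated. Hd-rR, an inbred strain, gave 20 libraries, while d-rR and Qurt stand in the strain label of replicate 2 at stages 40 and 41, called the other strain below. At those stages strain and replicate number cannot be told apart. The study's methods list d-rR as a transgenic line, d-rR-Tg (olvas-GFP). Whether the libraries of the other strain carry this transgene was not examined. The labels call all 22 whole embryos, while the study counts 10 embryonic stages and a larval one, which by order is the last, stage 41. Libraries were made from many animals of a stage by the study's account, so each is taken as a pool, and nothing says that the 2 libraries of a stage came from separate clutches. All p-values therefore measure the spread between these libraries, which may be technical. Values are in TPM, the transcript-length-corrected share of a library's RNA, which keeps no read depth. In whole embryos, fewer cells of a type and less RNA per cell cannot be told apart.

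T-box factors bind DNA through the T domain first seen in Brachyury and are known for specifying mesoderm and for patterning heart, fins or limbs, pharynx and forebrain. The zf-GATA family joins the GATA factors of blood, heart and endoderm to chromatin proteins that carry a single GATA-type zinc finger. MH1 is the DNA-binding domain of the SMAD proteins, which carry signals of the TGF-beta, nodal and BMP ligands into the nucleus, and a related domain is found in the nuclear factor I proteins. AP-2 factors are known for their work in epidermis, neural crest, kidney and neurons.

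All 50 named members carry a name of their own family. A further 10 have no name and appear under their identifier. At least 1 TPM in both libraries of some stage was reached by 58 members, and the remaining ones were tbx2b, with a highest stage mean of 1.21 ± 0.529 TPM, and IGDB02324, with 0.71 ± 0.208 TPM (SD, n = 2 each). Differences between stages were tested with limma on log2(TPM + 1) over the 21179 genes that had 1 TPM in at least 2 libraries. This took in 59 members and left out IGDB02324. Over the 11 stages 56 of the 59 changed at a Benjamini-Hochberg adjusted p under 0.05, or 94.9%, beside 92.7% of all genes tested. The members that did not pass were smad3, gatad1 and trps1, with adjusted p = 0.248, 0.0845 and 0.138.

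Marker genes gave a rough timing of tissues, as a summed level follows its most abundant marker. The summed level of 3 oocyte genes was highest at stage 6 (731 TPM) and that of 3 heart genes at stage 25 (178 TPM). Lens was highest at stage 36 (4414 TPM), photoreceptor at stage 40 (4982 TPM) and skeletal muscle, with 2 of 3 markers found, at stage 41 (1056 TPM). The heart markers differed, with hand1 highest at stage 19, myl7 at stage 25 and popdc2 at stage 40. At stage 38, 53 of the 59 members (89.8%) were higher in replicate 1 than in replicate 2, against 57.4% of all genes tested. The median member difference there was 0.77 on the log2 scale, against 0.11. Stage 38 was the extreme, but at every stage this share was larger for members than for all genes. It was 72.9% against 48.4% at stage 6, 74.6% against 44.3% at stage 36 and 71.2% against 45.6% at stage 40. The gap was smallest at stage 15, with 39% against 37.1%. At stage 19 it was 39% against 18.4%, so most members were higher in replicate 2 at stages 15 and 19. Values of each library are therefore given for the members the results turn on.

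**Figure D1:**
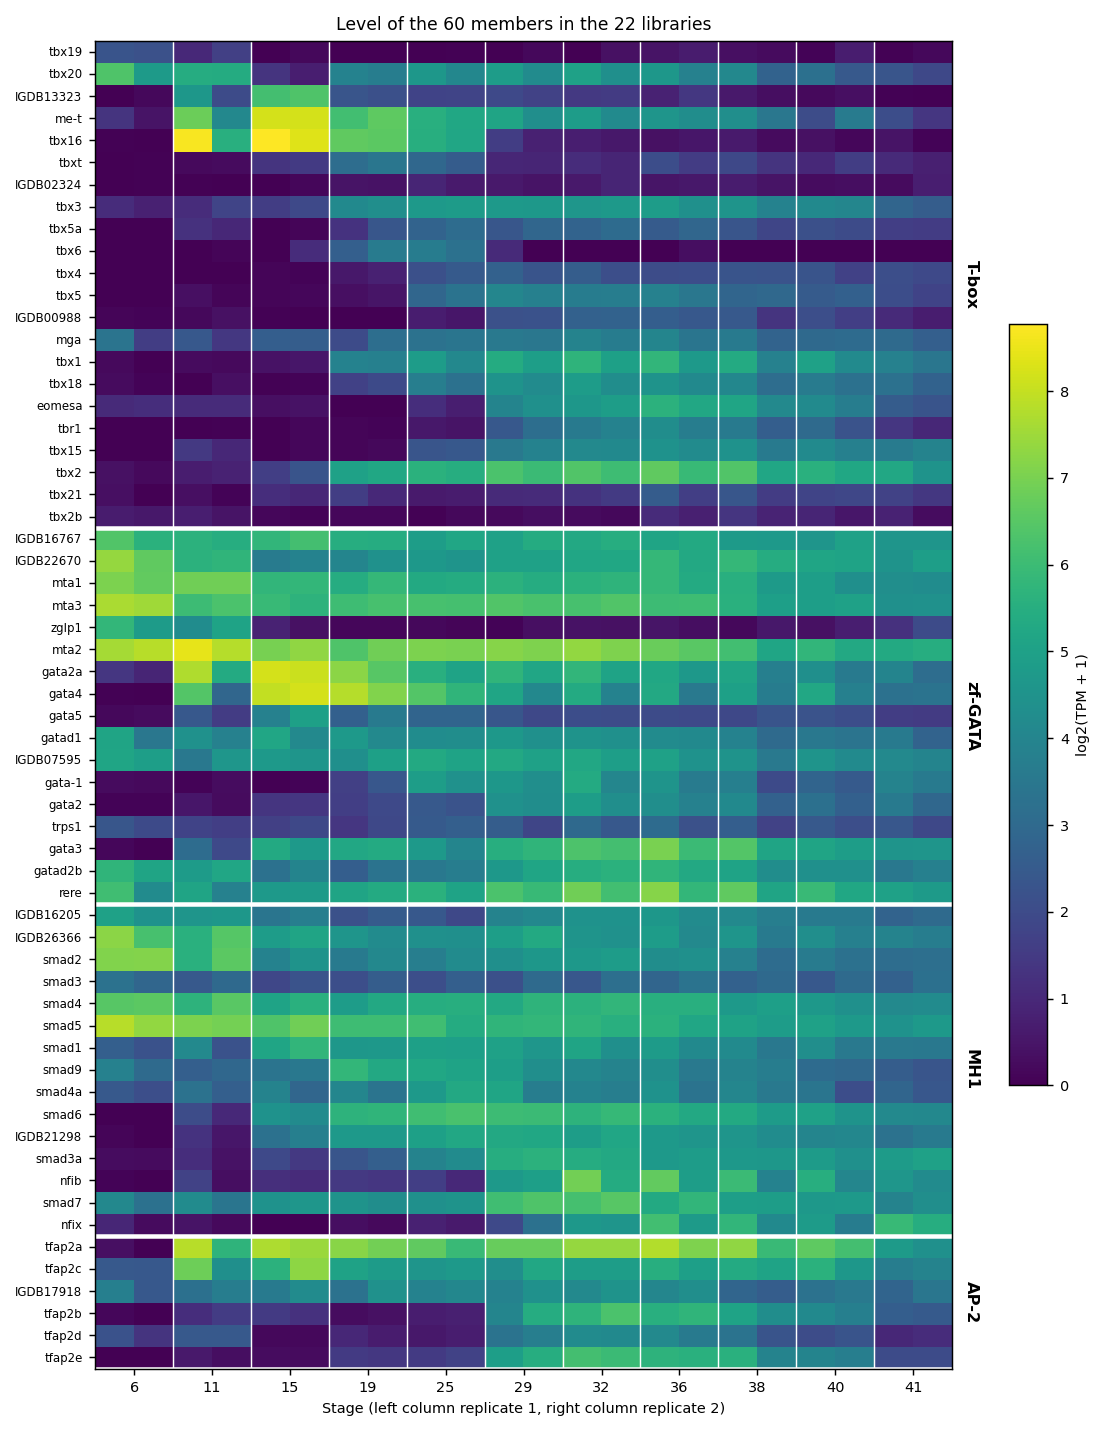
Level of each of the 60 members as log2(TPM + 1), with one line per gene ordered by family and by stage of its highest mean, and 2 columns (replicates 1 and 2) per stage. The brightest T-box cells are tbx16 and me-t at stage 15, mta2 and smad5 are high from stage 6 on, and most lines darken toward stage 41.

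The families differed in what stage 6 embryos already held. Both libraries of stage 6 had at least 1 TPM for 28 of the 60 members, of which 11 were zf-GATA, 10 MH1, 4 T-box and 3 AP-2 genes. That is 46.7% of members, beside 46.1% of all genes. At every stage 23 members (38.3%, beside 38.2% of all genes) reached that level: 10 zf-GATA, 10 MH1, 2 AP-2 and 1 T-box. The T-box gene was mga, whose product pairs with the MYC partner MAX. The mga model is an Ensembl one with a span of 3.63 kb and 2 exons, and whether it covers the whole gene was not examined. Within zf-GATA the split ran along protein type, by groups that were chosen with earlier results of these data known. None of the 6 GATA factors was detected at stage 6. All 7 genes of a group of chromatin subunits and corepressors, with the repressor trps1 among them, were detected. The members outside these groups, zglp1 and 3 unnamed genes, were detected as well. Within MH1 those detected were 5 of 6 receptor-regulated SMADs, both common-partner SMADs, 1 of 2 inhibitory SMADs and neither nuclear factor I gene. These counts are descriptions without a test.

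The stage of the highest mean also differed between families. Of the 20 detected T-box genes, 2 were highest at stages 6 to 11, 4 at stages 15 to 19, 3 at stage 25, 11 at stages 29 to 36 and 0 later. The 17 zf-GATA genes divided 6, 4, 1, 6 and 0 over the same periods and the 15 MH1 genes 6, 2, 2, 4 and 1. All 6 AP-2 genes had their highest mean either at stage 15 (2 genes) or at stage 32 (4 genes), but some peaks were not sharp. Thus tfap2a had 191 ± 23.2 TPM at stage 15 and 176 ± 58.3 TPM at stage 36. For tfap2c it was 101 ± 74.3 TPM at stage 15 and 67 ± 66.6 TPM at stage 11 (SD, n = 2 each). For comparison, 1504 other detected transcription factors divided 402, 299, 57, 574 and 172. The median highest mean was 17.5 TPM for T-box genes, 65.2 TPM for zf-GATA, 51.7 TPM for MH1 and 65.4 TPM for AP-2.

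Each stage was then set against the one before it, and a call required an adjusted p under 0.05 within that step together with a log2 change, later minus earlier, of 1 or more. The 59 members gave 59 rises and 27 falls at 44 genes, and 15 were called at no step. The 44 are 74.6% of the members tested, beside 65.2% of all genes tested and 69.5% of other transcription factors. In all 86 cases the 2 libraries of one stage lay apart from the 2 of the other. The calls were chosen on these same libraries, so this adds no support to them. Of the 86 calls, 34 were lost in at least 1 fit that left out a library of either stage compared. Log2 changes are on the log2(TPM + 1) scale, which understates the change of low genes.

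**Figure D2:**
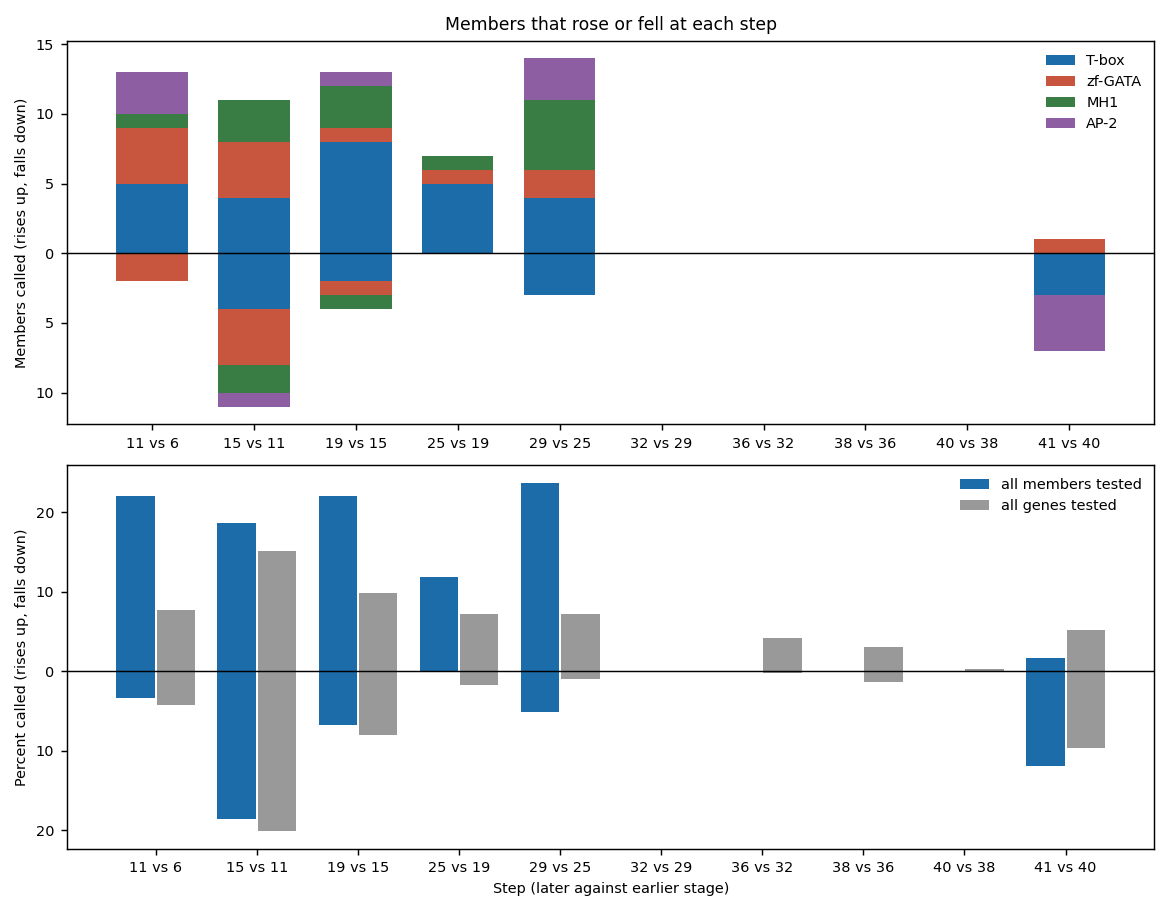
Members called at each of the 10 steps, rises above and falls below the zero line; the upper panel stacks counts by family and the lower one gives the percent of the 59 members and of all 21179 genes tested. Rises of members range from 7 to 14 at the first 5 steps, no member is called at the 4 steps from stage 29 to 40, and 7 falls stand at stage 41 against stage 40.

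Against stage 6, 13 members rose and 2 fell at stage 11. That is 22% and 3.39%, beside 7.65% and 4.24% of all genes and 17.1% and 4.5% of other transcription factors. The rises comprised 5 T-box, 4 zf-GATA, 3 AP-2 genes and smad6. The zf-GATA genes that rose were gata2a, gata3, gata4 and gata5, all of them GATA factors, while the falls were mta3, a subunit of the NuRD chromatin remodeller, and IGDB22670. The libraries of stage 11 differed: 12 of the 13 members that rose were higher in replicate 1, as were 88% of the 1620 genes that rose overall. Without stage 11 replicate 1, 7 members rose (tfap2a, me-t, IGDB13323, tbx16, gata2a, gata3 and gata4) and mta3 fell. Without stage 11 replicate 2 the counts were 14 and 5.

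Among T-box genes tbx16 reached the highest level. This gene (IGDB26292, chromosome 9, 20718961-20721638) is required in zebrafish for mesoderm progenitors to leave the midline. It had 416 and 45.8 TPM at stage 11, against 0.0394 and 0 TPM at stage 6 (log2 change 7.10, SE 0.62, adjusted p = 3.44e-07). The stage 11 libraries were far apart, yet both lay above stage 6. At stage 19 it had 98 and 94.5 TPM, against 437 and 324 TPM at stage 15 (log2 change -1.96, adjusted p = 0.0333), a call that was lost when any 1 of these 4 libraries was left out. It had 2.02 and 0.733 TPM at stage 29, against 43.8 and 35.4 TPM at stage 25 (log2 change -4.14, SE 0.62, adjusted p = 3.22e-04). From stage 29 on no library held more than 2.02 TPM, so the 8 libraries of stages 11 to 25 were the ones with a high level.

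Like it, me-t (IGDB12846, chromosome 11, 25849208-25851630) peaked at stage 15. It had 298 and 295 TPM at stage 15, against 111 and 15.9 TPM at stage 11 (log2 change 2.77, SE 0.67, adjusted p = 0.00286), and without stage 11 replicate 2 the adjusted p was 0.0885. The stage 6 libraries held 1.48 and 0.392 TPM. Unlike tbx16 it stayed measurable afterwards, with 27.9 and 17.2 TPM at stage 32 and 3.21 and 1.62 TPM at stage 41. The unnamed IGDB13323 (chromosome 12, 17515749-17519179) had a narrower course. It had 70.2 and 81.7 TPM at stage 15, against 24.1 and 3.06 TPM at stage 11 (log2 change 2.93, SE 0.51, adjusted p = 2.02e-04). At stage 19 it had 3.99 and 3.4 TPM (log2 change -4.03, SE 0.51, adjusted p = 2.74e-05), well under both stage 15 libraries. Among T-box genes, me-t had the course most like it over the 11 stages (Pearson r = 0.88 of mean log2 levels). This and the values of r below describe stage means that share their libraries and carry no test.

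The genes tbxt and tbx6 peaked later. The gene matched to tbxt, the symbol of Brachyury, which acts in notochord and posterior mesoderm, was highest at stage 19 with 8.86 ± 1.38 TPM. Whether another T-box member, such as me-t, is also a Brachyury gene was not examined. A factor of presomitic mesoderm, tbx6, was highest at stage 25 with 10.3 ± 2.28 TPM (SD, n = 2 each). Both tbxt and tbx6 rose at stage 19 and fell at stage 29, and tbxt had already risen at stage 15. Only they and tbx16 fell at stage 29 among the 59 members. Their highest means were small beside the 381 ± 80 TPM of tbx16, and tbx6 was listed at 0 in both libraries of stage 41.

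The T-box genes tbx20 and tbx19 were highest at stage 6 and low by gastrulation. Cardiac factor tbx20 (IGDB16179, chromosome 16, 31342551-31351747) had 1.51 and 0.661 TPM at stage 15, against 42.6 and 41.4 TPM at stage 11 (log2 change -4.40, SE 0.51, adjusted p = 3.33e-06). The stage 6 libraries held 81 and 26.5 TPM, the highest mean of its course. It then returned, with 13.8 and 12.1 TPM at stage 19 (log2 change 2.77, adjusted p = 8.60e-04, against stage 15), and reached 31.8 and 19.9 TPM at stage 32. Thus tbx20 had an early and a later phase with a gap at stage 15 in both libraries. The pituitary factor tbx19 was highest at stage 6, at 3.68 ± 0.213 TPM, fell at stage 15 and had no later stage mean as high.

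**Figure D3:**
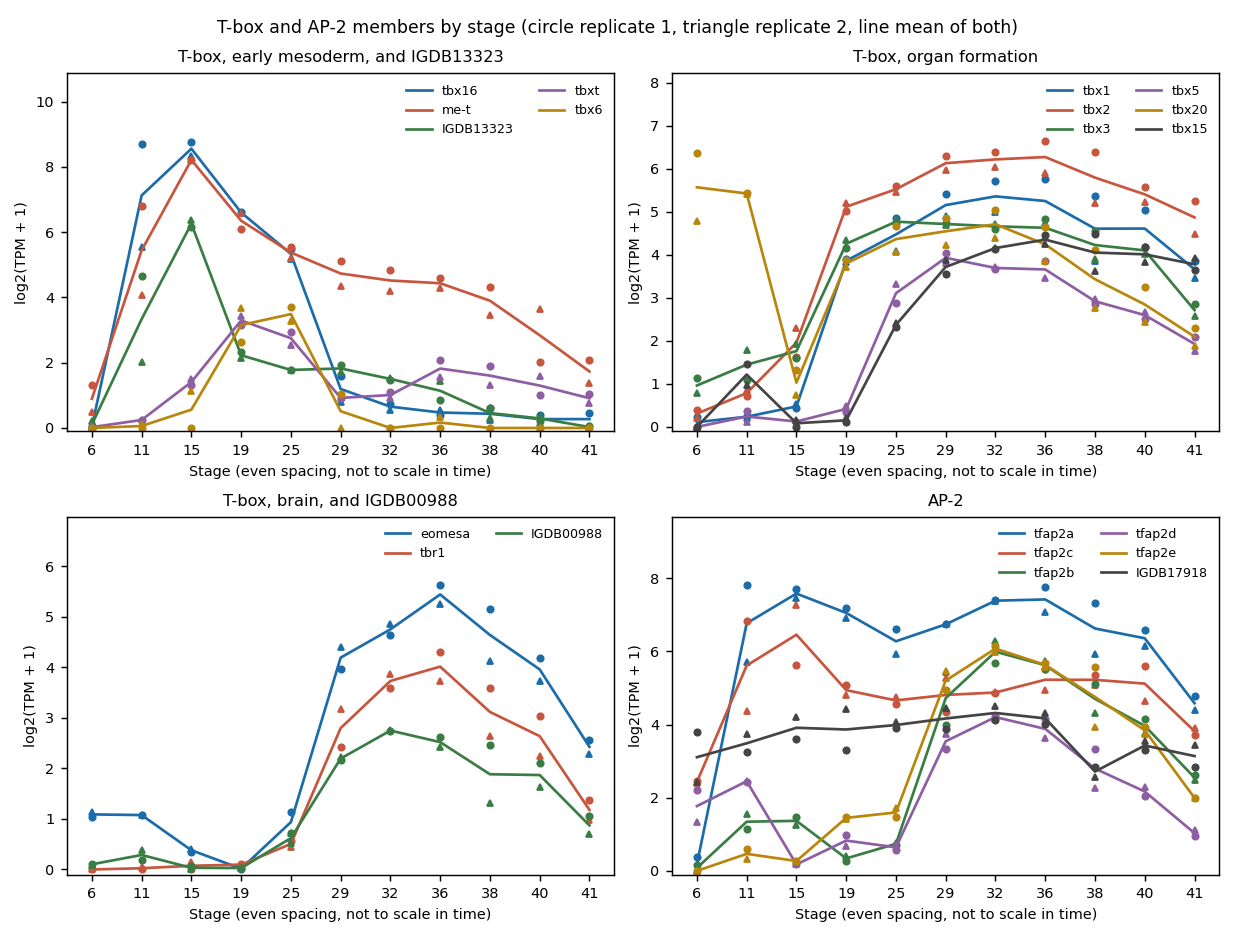
Time courses of T-box and AP-2 members as log2(TPM + 1) by stage, with circles for replicate 1, triangles for replicate 2 and a line through their mean. The tbx16, me-t and IGDB13323 lines peak at stage 15, tbx20 dips at stage 15 between 2 phases, tfap2a is high from stage 11 to 40, and tfap2b, tfap2d and tfap2e climb together at stage 29.

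T-box genes of organ formation rose during somite stages. Against stage 15, 13 members rose and 4 fell at stage 19, beside 9.85% and 8.02% of all genes. Among other transcription factors 15.7% rose and 11.6% fell. Of the member rises 8 were T-box genes: tbx1, tbx2, tbx3, tbx5a, tbx18, tbx20, tbxt and tbx6. The pharyngeal arch factor tbx1 (IGDB26344, chromosome 9, 23696408-23704017) had 13.9 and 13.2 TPM at stage 19, against 0.347 and 0.437 TPM at stage 15 (log2 change 3.38, SE 0.47, adjusted p = 6.37e-05). It climbed further, to 51.8 and 30.9 TPM at stage 32. Its stage 19 libraries were nearly equal and far above those of stage 15. Without stage 15 replicate 2 the calls at this step came to 10 rises and 1 fall, and IGDB13323 was the fall.

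The pair tbx2 and tbx4 lies on chromosome 13, on the same strand, 19.52 kb apart with 0 genes between. The repressor tbx2 (29909090-29916774) had 31.5 and 36.1 TPM at stage 19, against 2.09 and 3.9 TPM at stage 15 (log2 change 3.16, SE 0.38, adjusted p = 1.85e-05), and was highest at stage 36 with 98.4 and 59.2 TPM. Its neighbour tbx4 (29936295-29970688), known from hindlimb and pelvic fin, came one step later and far lower. It had 3.46 and 4.54 TPM at stage 25, against 0.492 and 0.74 TPM at stage 19 (log2 change 1.63, SE 0.25, adjusted p = 3.00e-04), and no library exceeded 5.63 TPM. Over the 11 stages their log2 means had r = 0.91.

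A similar pair on chromosome 12 holds tbx3 (12686889-12693920) and tbx5a (12712197-12728194), again on one strand, 18.28 kb apart with 0 genes between. The repressor tbx3 had 17 and 19.3 TPM at stage 19, against 2.04 and 2.79 TPM at stage 15 (log2 change 2.49, SE 0.31, adjusted p = 1.94e-05). It stayed between 14 and 27.6 TPM in every library of stages 19 to 40. The heart and pectoral fin gene tbx5a had 1.43 and 4.14 TPM at stage 19, against 0 and 0.0745 TPM at stage 15 (log2 change 1.77, adjusted p = 7.64e-04), and its libraries stayed at or below 7.65 TPM. In both pairs the second gene was the lower one, and here r was 0.93.

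Against stage 19, 7 members rose and 0 fell at stage 25, or 11.9% and 0%, beside 7.18% and 1.79% of all genes. Among other transcription factors 11% rose and 1.92% fell. At an unadjusted p under 0.05 in limma, 2 members were lower. Of the rises 5 were T-box genes: tbx4, tbx5, tbx5a, tbx15 and tbx18. The heart and forelimb factor tbx5 (IGDB26090, chromosome 9, 13467212-13477948) had 6.41 and 9.04 TPM at stage 25, against 0.282 and 0.395 TPM at stage 19 (log2 change 2.69, SE 0.25, adjusted p = 1.71e-06). It was highest at stage 29, with 15.5 and 13.1 TPM, above any library of its paralog tbx5a. Among the rest, tbx15, known from dermis and skeleton in mouse, was highest at stage 36 (19.5 ± 2.28 TPM) and tbx18, a factor of somites and epicardium, at stage 32 (23.3 ± 6.72 TPM).

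The T-box genes of forebrain neurons formed a late group. The factor eomesa (IGDB12390, chromosome 11, 6420332-6424042) had 14.7 and 20.3 TPM at stage 29, against 1.21 and 0.66 TPM at stage 25 (log2 change 3.25, SE 0.33, adjusted p = 7.52e-06). It was highest at stage 36, with 48.8 and 37 TPM. At stage 41 it had 4.92 and 3.88 TPM, against 17.2 and 12.3 TPM at stage 40 (log2 change -1.53, SE 0.33, adjusted p = 0.00343). The related tbr1, a factor of cortical projection neurons in mouse, and the unnamed IGDB00988 rose at the same step, with highest means of 15.5 ± 4.72 and 5.73 ± 0.0676 TPM (SD, n = 2 each). Course likeness was high in this trio, with r = 0.98 for eomesa and tbr1 and r = 0.99 for tbr1 and IGDB00988. The immune factor tbx21 reached 3.46 ± 1.98 TPM at stage 36 and was called at no step.

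T-box courses as a whole were mixed: over 210 pairs the median r was 0.19, with 79 pairs below 0 and 21 over 0.9. Summed over the family, T-box RNA came to 99.6 and 35.4 TPM at stage 6, 820 and 718 TPM at stage 15 and 112 and 82.3 TPM at stage 41. At stage 15 most of that sum was tbx16 and me-t.

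The zf-GATA family held 2 groups that differed at the start, GATA factors that began after stage 6 and chromatin proteins detected from stage 6 on. Later courses were mixed within both groups. Over the 136 pairs of the family the median r was 0.05, with 60 pairs below 0 and 3 over 0.9. The highest GATA factor was gata2a (IGDB22916, chromosome 5, 15367890-15379574), a gene of blood progenitors. It had 210 and 40.2 TPM at stage 11, against 1.64 and 0.889 TPM at stage 6 (log2 change 5.39, SE 0.60, adjusted p = 6.12e-06). At stage 15 it had 293 and 269 TPM, a rise again (log2 change 1.59, adjusted p = 0.0432). That second call was lost without either library of stage 15 or without stage 11 replicate 2 (log2 change 0.42, adjusted p = 0.694). Its paralog gata2 (IGDB22635, chromosome 5, 3686564-3693404) behaved otherwise, with 20.9 and 18.5 TPM at stage 29, against 4.52 and 3.76 TPM at stage 25 (log2 change 2.01, SE 0.40, adjusted p = 0.00301). The highest means of the paralogs were 281 ± 17.6 TPM at stage 15 for gata2a and 23.6 ± 6.5 TPM at stage 32 for gata2 (SD, n = 2 each).

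Factors of heart and endoderm peaked at mid-gastrula. Against stage 11, 11 members rose and 11 fell at stage 15, beside 15.1% and 20.1% of all genes. Among other transcription factors 16.1% rose and 17.3% fell. Of the member rises 4 were GATA factors. One was gata4 (IGDB20990, chromosome 24, 16924971-16933298), with 247 and 295 TPM at stage 15, against 85.7 and 6.49 TPM at stage 11 (log2 change 3.41, SE 0.86, adjusted p = 0.00418). The stage 11 libraries were far apart, and without stage 11 replicate 2 the log2 change was 1.64 with adjusted p = 0.129. After 219 and 138 TPM at stage 19 its level was 35 and 16 TPM at stage 29 and 8.72 and 9.24 TPM at stage 41. The related gata5 (IGDB08886, chromosome 7, 5255047-5277611) had 5.4 and 10.9 TPM at stage 19, against 13.5 and 30.4 TPM at stage 15 (log2 change -1.29, SE 0.38, adjusted p = 0.0215). Without stage 15 replicate 2 the adjusted p was 0.316 and without stage 19 replicate 1 it was 0.244. Its course was the one most like that of gata4 (r = 0.97), while the highest means were 21.9 ± 11.9 TPM for gata5 and 271 ± 33.9 TPM for gata4.

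The red blood cell factor gata-1 (IGDB23111, chromosome 5, 26350852-26354479) began during somite stages. It had 28.2 and 20.6 TPM at stage 25, against 2.18 and 4.16 TPM at stage 19 (log2 change 2.63, SE 0.50, adjusted p = 0.00185), and both libraries of stage 15 held at most 0.0675 TPM. Later libraries of a stage could differ widely, as at stage 32 with 40.6 and 15.5 TPM and at stage 38 with 12.7 and 2.93 TPM. The only red blood cell marker found, rhag, was highest at stage 40, at 134 ± 6.29 TPM. In contrast to these factors, gata3, a gene of T cells, inner ear and neurons in vertebrates, was highest at stage 36 with 94.2 ± 46.2 TPM (SD, n = 2).

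**Figure D4:**
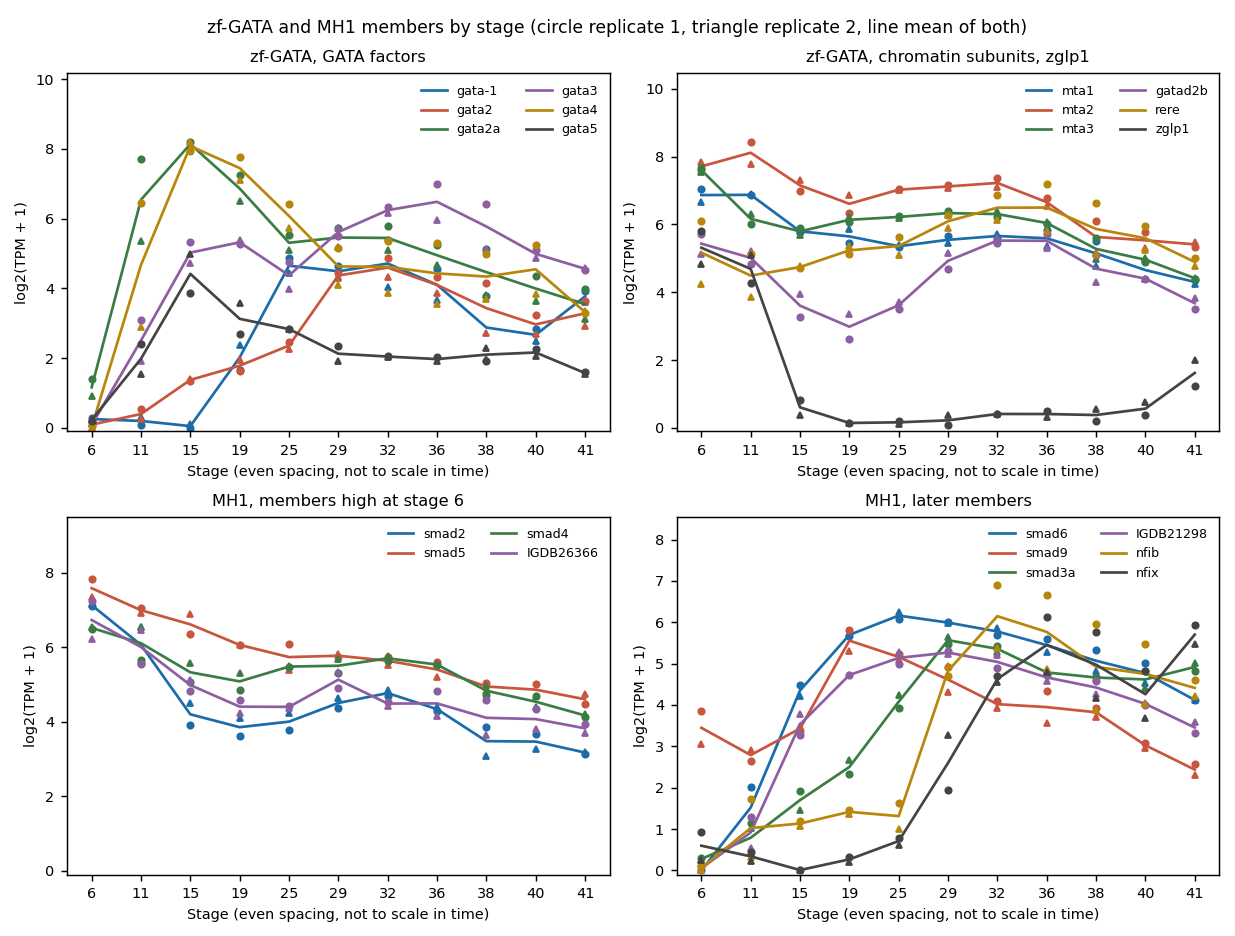
Time courses of zf-GATA and MH1 members as log2(TPM + 1) by stage, with circles for replicate 1, triangles for replicate 2 and a line through their mean. GATA factors start near 0 at stage 6, mta1, mta2 and mta3 start high and lie lower at stage 41, zglp1 drops at stage 15, smad2 and smad5 are highest at stage 6, and smad6 climbs over stages 11 to 25.

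The chromatin members were abundant early. NuRD subunit mta2 (IGDB17467, chromosome 18, 29078866-29101475) had the highest mean of all zf-GATA genes, with 347 and 219 TPM at stage 11, while its stage 6 libraries held 192 and 226 TPM and no step was called. The related mta3 (IGDB17876, chromosome 19, 12516853-12532753) had 64 and 78 TPM at stage 11, against 202 and 184 TPM at stage 6 (log2 change -1.43, SE 0.25, adjusted p = 6.06e-04). From stage 11 to 36 it held between 50.4 and 83.1 TPM in every library, a plateau below the stage 6 level. Another paralog, mta1, was highest at stage 6 (117 ± 22 TPM) and fell at stage 15. The NuRD subunit gatad2b fell at stage 15 and rose at stage 29, with its highest mean at stage 36 (45.2 ± 9.43 TPM). The corepressor rere was highest at stage 36 as well (99.6 ± 62.9 TPM), the chromatin protein gatad1 at stage 15 (26.1 ± 13.3 TPM) and the cartilage and hair repressor trps1 at stage 32 (5.64 ± 1.84 TPM), and none of these 3 was called at a step. Among the unnamed genes, IGDB22670 (132 ± 48.8 TPM) and IGDB16767 (65.2 ± 24.9 TPM) were highest at stage 6 and IGDB07595 at stage 25 (36.4 ± 4.63 TPM; SD, n = 2 each).

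One zf-GATA gene was lost almost fully at gastrulation. The germ-line factor zglp1 (IGDB00221, chromosome 1, 10352620-10358073) had 0.778 and 0.3 TPM at stage 15, against 18.3 and 33.4 TPM at stage 11 (log2 change -4.08, SE 0.34, adjusted p = 9.14e-08). It stayed at or below 0.68 TPM in every library of stages 19 to 40. At stage 41 it had 1.36 and 2.99 TPM, against 0.304 and 0.68 TPM at stage 40 (log2 change 1.05, adjusted p = 0.0406), the only rise of a member at that step, and nfix rose as well with the replicate number as a block. The call was lost under 8 alternatives, among them leaving out stage 41 replicate 2 of the other strain (adjusted p = 0.322), stage 40 replicate 1 (0.212) or stage 40 replicate 2 (0.0682) and a pseudocount of 5 (0.331). The summed level of the 3 oocyte markers went with it, at 731 TPM at stage 6, 5.3 TPM at stage 25 and 83.4 TPM at stage 41. Their part in the zglp1 values was not tested.

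MH1 members can be read by their place in the signalling chain. SMAD2 and SMAD3 carry nodal, activin and TGF-beta signals and SMAD1, SMAD5 and SMAD9 those of BMPs, SMAD4 is their common partner, and SMAD6 and SMAD7 inhibit the chain. Of the first type, smad2 (IGDB13343, chromosome 12, 19391216-19410826) was highest at stage 6 with 137 and 141 TPM. It had 14 and 21.5 TPM at stage 15, against 46.6 and 92.8 TPM at stage 11 (log2 change -1.86, SE 0.35, adjusted p = 3.92e-04). Stage 15 thus lay below both stage 11 libraries, and later libraries stayed at or below 27.7 TPM. The gene smad3a took the opposite course. This gene (IGDB21297, chromosome 3, 12624747-12652377) had 14.1 and 17.9 TPM at stage 25, against 4.03 and 5.37 TPM at stage 19 (log2 change 1.58, SE 0.29, adjusted p = 0.00149), and 43.6 and 49.4 TPM at stage 29. From stage 29 on smad3a lay above smad2 in 12 of 12 libraries.

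Of the BMP type, smad5 (IGDB12157, chromosome 10, 25742932-25754525) was the most abundant MH1 gene, with 21.2 and 25.6 TPM at stage 41, against 225 and 162 TPM at stage 6, and was called at no single step. Its paralog smad9 (IGDB14342, chromosome 14, 10259378-10265522) had 55.4 and 38.3 TPM at stage 19, against 9.28 and 10.3 TPM at stage 15 (log2 change 2.13, SE 0.33, adjusted p = 1.96e-04). The remaining one, smad1, was highest at stage 15 (44.5 ± 14.1 TPM). Among the partners smad4 (IGDB13191, chromosome 12, 13025607-13033344) had between 16.4 and 53.5 TPM in every library from stage 15 on, against 88.5 and 92.9 TPM at stage 6, and smad4a was highest at stage 25 (31.6 ± 8.97 TPM). Neither was called at a step. The unnamed IGDB26366 (chromosome 9, 25276935-25289428) also began high, with 150 and 73.6 TPM at stage 6, and its course was most like that of smad2 (r = 0.96). Another unnamed gene, IGDB16205 (chromosome 16, 32282140-32291734), had 3.47 and 4.78 TPM at stage 19, against 9.55 and 12.5 TPM at stage 15 (log2 change -1.23, SE 0.29, adjusted p = 0.00608), and rose again at stage 29. Its fall did not pass without stage 15 replicate 2 (adjusted p = 0.0762) or without stage 19 replicate 1 (adjusted p = 0.0631).

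The inhibitory smad6 rose over 3 steps in a row, the first of which was lost without stage 11 replicate 1 (adjusted p = 0.0835) and the last without stage 15 replicate 2 (adjusted p = 0.0561). This gene (IGDB23673, chromosome 6, 16397708-16420138) was listed at 0 TPM in both stage 6 libraries. It had 21.3 and 17.7 TPM at stage 15, against 3.07 and 1.02 TPM at stage 11 (log2 change 2.83, SE 0.31, adjusted p = 1.89e-06), and 49.8 and 51.9 TPM at stage 19. Its highest libraries were those of stage 25, with 66.3 and 75.2 TPM. Its neighbour smad3 (16368707-16376235), 21.47 kb away on the same strand with 0 genes between, never exceeded 9.11 TPM and had r = -0.38 with it. The other inhibitor, smad7, rose at stage 29 and was highest at stage 32 (80.1 ± 12.1 TPM).

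A second MH1 pair lies on chromosome 3, where IGDB21298 (12674002-12697091) follows smad3a on the same strand at 21.62 kb with 0 genes between. The unnamed gene had 8.66 and 12.8 TPM at stage 15, against 1.44 and 0.461 TPM at stage 11 (log2 change 2.61, SE 0.29, adjusted p = 2.08e-06), and 38.7 and 36.4 TPM at stage 29. It was first called at stage 15 and smad3a at stage 25, though without stage 11 replicate 1 or stage 15 replicate 2 smad3a also rose at stage 15, and both genes first had 1 TPM in both libraries at stage 15. For the pair r was 0.82. Its course was closest to that of smad6, with the highest r of the 105 MH1 pairs, a gene on another chromosome that also has an MH1 neighbour. Transcript models of IGDB21298 and smad6 have at most 4 exons each.

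Each nuclear factor I gene had its only call at stage 29, though that of nfix depended on single libraries and on the processing. Against stage 25, 14 members rose and 3 fell at stage 29, beside 7.22% and 1.04% of all genes. Among other transcription factors 11.5% rose and 1.98% fell. Of the member rises 5 were MH1 genes: nfib, nfix, smad3a, smad7 and IGDB16205. The gene nfib (IGDB17180, chromosome 18, 11780612-11844542), known for glia and late neurons, had 25.2 and 29.7 TPM at stage 29, against 2.07 and 1.01 TPM at stage 25 (log2 change 3.51, SE 0.69, adjusted p = 0.00298). At stage 32 its libraries held 119 and 40.9 TPM, a wide gap between replicates that persisted to stage 40. Its paralog nfix was the only detected member with its highest mean at stage 41 (51.7 ± 11.6 TPM; SD, n = 2). The nfix call at stage 29 was lost without either library of stage 25 or without stage 29 replicate 2. In that last fit nfix rose at stage 32 instead. The call was also lost with a pseudocount of 5 (adjusted p = 0.357), quantile normalization (adjusted p = 0.287), median-of-ratios scaling or no filter. A shared timing of nfib and nfix is therefore not secure.

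AP-2 genes formed an early and a late group. In the early one tfap2a (IGDB18661, chromosome 20, 13119346-13127289), a gene of epidermis and neural crest, had 225 and 51.7 TPM at stage 11, against 0.294 and 0 TPM at stage 6 (log2 change 6.58, SE 0.53, adjusted p = 1.15e-07). It stayed at 51.7 TPM or more in every library of stages 11 to 40. The related tfap2c (IGDB22850, chromosome 5, 12732593-12740779) had 114 and 19.9 TPM at stage 11, against 4.48 and 4.31 TPM at stage 6 (log2 change 3.19, SE 0.61, adjusted p = 0.00155), and 48.9 and 154 TPM at stage 15. Replicate 1 was the higher library at stage 11 and replicate 2 at stage 15, and without stage 11 replicate 1 the rise had an adjusted p of 0.0516.

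The late AP-2 genes moved together at stage 29. Of them tfap2b (IGDB21037, chromosome 24, 18914846-18924446), a gene of kidney and neural crest, had 15 and 42.7 TPM at stage 29, against 0.646 and 0.694 TPM at stage 25 (log2 change 3.98, SE 0.40, adjusted p = 6.94e-06). Its neighbour tfap2d (18941378-18953612), 16.93 kb away on the same strand with 0 genes between, had 9.08 and 12.5 TPM at stage 29, against 0.496 and 0.63 TPM at stage 25 (log2 change 2.90, SE 0.35, adjusted p = 4.45e-05). The pair had r = 0.84, and before stage 29 both were low, with at most 4.5 TPM for tfap2d and 1.93 TPM for tfap2b, both at stage 11. The olfactory system gene tfap2e (IGDB12682, chromosome 11, 19987838-19997632) had 29.6 and 43.4 TPM at stage 29, against 1.78 and 2.3 TPM at stage 25 (log2 change 3.61, SE 0.39, adjusted p = 1.28e-05). All 3 were highest at stage 32. The unnamed IGDB17918 was flat by comparison, with a highest mean of 19.1 ± 3.56 TPM and no call. No pair of AP-2 genes had r below 0, and the median over 15 pairs was 0.35.

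Between stages 29 and 40 no member was called by limma. At stage 32 against stage 29, 0% of all genes rose and 0.00472% fell, and 4 members had an unadjusted p under 0.05, all of them higher. At stage 36 against stage 32, where 4.12% rose and 0.269% fell, it was 4 members. At stage 38 against stage 36, with 3.08% and 1.33% of all genes called, 15 members had an unadjusted p under 0.05 and all 15 were lower. Leaving out stage 38 replicate 1, the higher library for most members, gave 10 falls, tfap2e, tfap2d, IGDB00988, eomesa, tbr1, tbx18, mta2, mta3, gata2 and gata-1. At stage 40 against stage 38, with 0.302% and 0.0331% called, 2 members had such a p. Without stage 29 replicate 2, tfap2b and nfix rose at stage 32, and without stage 38 replicate 2, tfap2e fell at stage 40.

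At the last step 4 of the 6 AP-2 genes were called lower. The calls of tfap2a and tfap2d were lost without any single library of stages 40 and 41. That of tfap2b was lost in each such fit but the one without stage 40 replicate 2, and tfap2e kept its call in each. Against stage 40, 1 member rose and 7 fell at stage 41, or 1.69% and 11.9%, beside 5.22% and 9.71% of all genes. Among other transcription factors 2.45% rose and 13.2% fell. Median-of-ratios scaling gave 2 rises and 6 falls of members. The falls were tfap2a, tfap2b, tfap2d and tfap2e together with eomesa, tbr1 and tbx3. The AP-2 gene with the largest fall, tfap2e, had 2.99 and 2.98 TPM at stage 41, against 14.4 and 12.4 TPM at stage 40 (log2 change -1.85, SE 0.39, adjusted p = 0.00281). The Hd-rR library and the other strain's library of stage 41 were each lower than their counterpart of stage 40. With Hd-rR libraries alone, 1 library per stage, 1 call was left, the fall of tbr1. Without stage 41 replicate 2 there were 3 falls, tfap2e, eomesa and tbx3, and without stage 40 replicate 1 there were the same 3 and a rise of nfix.

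Stage 41 was also set against stage 36, a comparison chosen after the values were seen. In both libraries of stage 41, 48 of 59 members lay below both libraries of stage 36, beside 50.5% of all genes tested, and 1 member lay above both, beside 20.9%. The lower ones were 16 of 21 T-box genes, 14 of 17 zf-GATA, 12 of 15 MH1 and 6 of 6 AP-2. The member above was zglp1. Median differences were -1.24 on the log2 scale for members and -0.45 for all genes, and -2.87 for the AP-2 genes. TPM are shares, and with median-of-ratios scaling 35 members were lower, beside 32.4% of all genes, and 4 were higher, beside 33%. In that scaling the median was -0.81 for members and -0.01 for all genes. With replicate 1 alone at stage 41, which leaves out the other strain, 49 of 59 members lay lower, beside 62.4% of all genes. Other transcription factors were not counted in this comparison. Against the stage before, their median log2 changes were -0.43 at stage 38 and -0.39 at stage 41, and those of members -0.52 and -0.41.

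**Figure D5:**
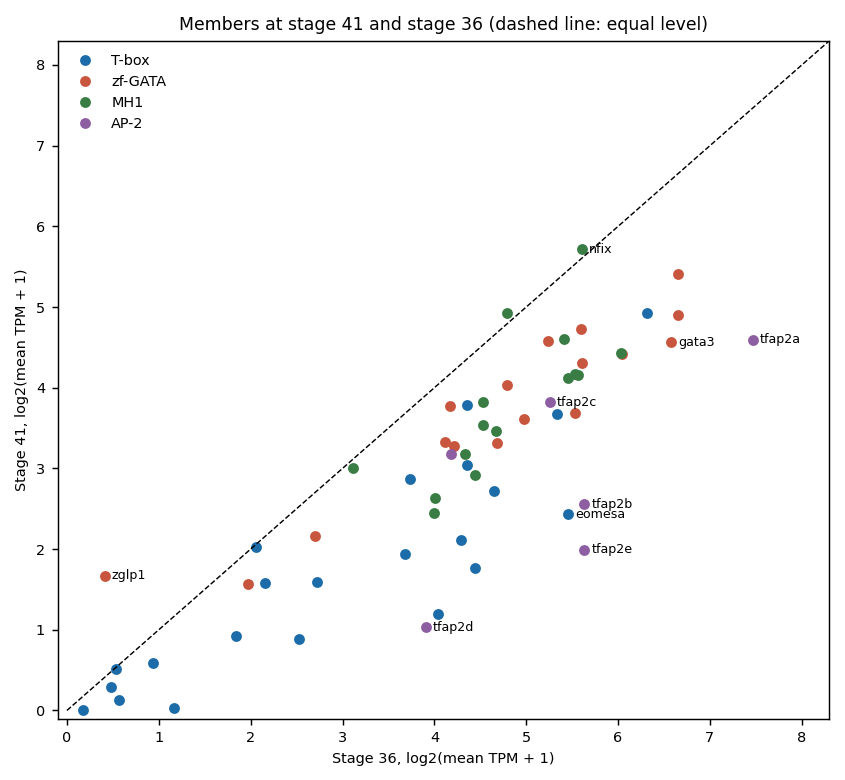
Mean level of each member at stage 41 (vertical) against stage 36 (horizontal), both as log2(mean TPM + 1), coloured by family, with a dashed line of equal level. Nearly all points lie below the line, the AP-2 genes tfap2a, tfap2b, tfap2d and tfap2e far below it, and zglp1, nfix and smad3a above it.

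The partner genes of these families were counted from pathway lists in the same fit. Among 8 inhibitors of TGF-beta family signals, extracellular ones and the pseudoreceptor bambi, 4 rose and 0 fell at stage 11. At stage 15, 5 rose and 0 fell. Median log2 changes were 1.68 and 1.44, beside 0.02 and -0.02 over all genes, where 7.65% rose at stage 11 and 15.1% at stage 15. At stage 11 the counts leaned on replicate 1, as for chrd with 88 and 13.1 TPM, and without that library 3 rose. Without stage 11 replicate 2, 1 inhibitor rose at stage 15, without stage 15 replicate 1 it was 3 and without stage 15 replicate 2 it was 2. At stage 19, 2 rose (fst and fstl1) and 2 fell (chrd and lefty1). The most abundant were fstl1 (352 ± 100 TPM at stage 36), the BMP pseudoreceptor bambi (232 ± 36.4 TPM at stage 15) and the BMP antagonist chrd (107 ± 18.3 TPM at stage 15). Of 16 ligands 3 rose at stage 11, 2 rose and gdf3 fell at stage 15, and 7 rose and nodal fell at stage 19, where 9.85% of all genes rose and 8.02% fell. Without stage 11 replicate 2, 0 ligands rose at stage 15. At stage 19, 5 ligands rose without stage 15 replicate 1 or stage 19 replicate 2, and 6 without stage 15 replicate 2. They were led in level by bmp4, with 105 ± 1.38 TPM at stage 15. Among 7 receptors 0 rose and 2 fell at stage 15, where 20.1% of all genes fell. Without stage 15 replicate 2 fewer fell, and without stage 11 replicate 2 or stage 15 replicate 1 more fell. The most abundant receptor was acvr1b, at 157 ± 23 TPM at stage 11. Of 6 SMAD target genes 4 rose at stage 15, among them id3, a BMP target, at 298 ± 16.2 TPM. At stage 19, 2 of them rose and 2 fell. Of 6 GATA partners and blood genes 0 rose and 1 fell at stage 11, where 4.24% of all genes fell. The counts were the same at stage 15, and 3 of these genes rose at stage 19. Of 8 mesoderm and tailbud genes 4 rose at stage 11 and 5 at stage 15. Of 4 SMAD partner and turnover genes 2 rose and 1 fell at stage 11. Several of these counts moved when single libraries were left out. Of 8 heart genes 5 rose at stage 19, or fewer without any 1 library of stages 15 and 19. At stage 25, 4 rose, beside 7.18% of all genes. The T-box genes tbx5a and tbx18 rose at both steps, tbx20 at stage 19 and tbx5 at stage 25. The stage 25 rises of tbx5a (adjusted p = 0.124) and tbx18 (adjusted p = 0.205) did not pass under quantile normalization, and were also lost without some single libraries. Of 13 genes of neural crest and epidermis 7 rose at stage 19. It was 6 without stage 15 replicate 1 and 5 without stage 15 replicate 2 or stage 19 replicate 2. Values are means ± SD over 2 libraries, and list members were found by symbol only, so genes without a symbol are not counted.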

How the data were processed

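The deposited values are TPM per gene, which the authors computed from strand-specific poly(A) paired reads. The submitters' processing notes name HISAT2 2.1.0 and StringTie 1.3.3b, and the gene models are the study's own merge of long-read and Ensembl models. Coordinates are those of these models on the medaka Hd-rR genome, and the name of the build is not given in the sources used here. TPM columns of replicate 1 sum to 980148 to 998174 and those of replicate 2 to 1000000, so depth is unknown. All 22 stage columns were matched to a sample by stage and replicate, with 0 left over, and the authors' mean columns were not used for tests. A table of adult gonads, whose level columns both name the ovary, was not used, because its identifiers do not number the same genes. Spearman rho with the stage libraries lay between 0.179 and 0.212 over all shared identifiers. Within identifier ranges of 5000 it lay between -0.037 and 0.088. Levels in adult gonads are therefore not analysed here.

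The test was a linear model of log2(TPM + 1) in limma 3.58.1 (R 4.3.3), 1 coefficient for each stage and the variance trend on, fitted to the 21179 genes that reached 1 TPM in 2 libraries. Benjamini-Hochberg adjustment ran over these genes within each step; calls required an adjusted p under 0.05 and a 1-unit log2 change. The model was also run on simulated data with independent noise for each gene and library. These held no deviations shared between libraries of one replicate number, so the run is no support for the calls. Identifiers were named by overlap of gene spans with RefSeq (Jaccard index of at least 0.5), which named 35 members, and 15 more were named from the study's motif table. Alternatives were other pseudocounts, filters, scalings and minimum changes, no variance trend, a replicate block, and fits without single libraries or without the other strain. The members, the pathway lists and the protein-type groups were chosen with earlier results of these data known. Any member may be named with its highest stage mean. Values of single libraries are given for the 4 members of each family with the highest mean, for the largest called rise and fall per family and step with 5 TPM on the higher side, and for neighbouring members. From each pathway list, the 3 genes with the highest mean may be named. Tables and plots were made in Python 3.11.15 with pandas 2.3.3, numpy 2.4.6 and matplotlib 3.10.9.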

Additional observations from a re-analysis of the deposited data

How the results depend on the processing

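The number of members that changed over the stages ranged from 53 to 57 when single libraries were left out, and every alternative kept it within 1.5 times the 56 reported. Calls against the stage before were also counted in fits without 1 library of either stage compared. They ranged from 8 to 19 at stage 11, 17 to 26 at stage 15, 11 to 14 at stage 19 and 5 to 7 at stage 25. Later ranges were 13 to 17 at stage 29, 0 to 2 at stage 32, 0 to 10 at stage 38, 0 to 1 at stage 40 and 3 to 6 at stage 41. Calls stayed at 0 at stage 36. Leaving out a library of another stage could move a count beyond these ranges. Without stage 11 replicate 1, 13 members rose and 6 fell at stage 19. Without stage 38 replicate 1, 2 rose and 7 fell at stage 41. A minimum log2 change of 2 left 8 calls at stage 11, 11 at stage 15, 7 at stage 19, 3 at stage 25, 9 at stage 29 and 0 at stage 41. A pseudocount of 5 left 11 calls at stage 19 and 4 each at stages 25 and 41. Quantile normalization gave 3 calls at stage 25, 2 falls at stage 38 and 5 calls at stage 41, and median-of-ratios scaling 1 at stage 38. Without the other strain 1 call was left at stage 41, where each stage then has 1 library whose spread is taken from the other stages. With the replicate number as a block, all 86 calls stayed and 11 were added: rises of tbx16 at stage 15, smad4a at stage 25, gata3 at stage 29 and nfix at stage 41, and falls of smad2 at stage 11, IGDB26366 at stage 15, me-t at stage 19, gata2a at stages 19 and 25, and IGDB17918 and mta2, 2 members, at stage 38. Replicate differences of 2 stages correlated at r = 0.048 to 0.669 over 55 pairs of stages (median 0.256), 53 of them over 0.1. Libraries of one number thus tended to deviate together, though 2 pairs lay at or under 0.1. The TPM columns of replicate 2 also all sum to 1000000 and those of replicate 1 to less. No label ties the numbers to a clutch or batch, and whether each number was processed as a set was not tested. The fit without the block is the one reported, and it leaves such shared deviations in its spread. Scaling moved the median of all genes by more than 0.1 at 6 steps, most at stage 38, where it was 0.05 under median-of-ratios scaling and -0.18 as deposited. Medians of T-box genes (0.12) at stage 11 turned to -0.05 under quantile normalization, and those of zf-GATA (0.08) and MH1 genes (0.15) at stage 25 to -0.06 and -0.03 under median-of-ratios scaling. The 25 named results, picked as the largest called changes per family and step, gave 325 values under the alternatives. Of these 314 kept their call, 11 did not pass and 0 changed sign. That choice favours results that pass again, and of all 86 calls 49 were lost in at least 1 alternative fit. Fits without a library of a stage outside the comparison were not counted here. Neither gata2 at stage 29 (adjusted p = 0.0798) nor gata-1 at stage 25 (adjusted p = 0.0553) passed under quantile normalization. With TPM, 2 libraries per stage and no depth, small changes of low members could not be resolved.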
